A study of Mus musculus with 7 samples.

Results

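Bmp ligands, their receptor, their extracellular antagonists and the Id genes that they induce were followed while mouse fibroblasts were turned into neural stem cells (NSC) by the factors Oct4, Sox2, Klf4 and Myc (OSKM). The 10 genes were chosen by their place in the pathway, with earlier results of these data known. The ligand genes were Bmp4 and Bmp7, the receptor gene Bmpr1a, and the antagonist genes Nog and Grem1. The target genes were Id1, Id2, Id3, Id4 and Smad6. All 10 were found among 29686 genes with at least 1 matched exon. Each value is an RPKM (reads per kilobase of exon and per megaread), averaged over the exons of the gene with their length as weight.

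Bone morphogenetic proteins bind pairs of type I and type II receptor kinases, which phosphorylate Smad1, Smad5 and Smad9. These enter the nucleus with Smad4 and switch on genes that include the Id genes and the inhibitory Smads. Id proteins have a helix-loop-helix domain but no DNA-binding region. They bind E proteins and so keep proneural factors from DNA. In embryonic stem cells Bmp signals are known to act through Id genes against neural differentiation, and in neural stem cells Id proteins are known to hold back differentiation.

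RNA-seq was measured in 7 populations with 1 library each. Mouse embryonic fibroblasts (MEF) were of strain A12 (Mbd3 flox/-), as were the induced pluripotent stem cells (iPSC). The day 6 cells were sorted as tdTomato positive after 6 days of doxycycline and 4OHT, from B6/129 fibroblasts with a Nanog-CreER reporter, Rosa26-TdTomato and Col1a-OSKM. The NSC made with OSKM were of the same strain and transgenes, were subcloned by hand, and came as 1 library positive and 1 negative for Nanog-Tomato. For these, as for day 6, the labels state that no feeder cells were present. Primary NSC came from the brain of BDF2 embryos, at E12.5 by the sample description and 1 day later by the growth protocol, and were grown in NSC medium with bFGF and EGF. Day 6 cells were grown with knock-out serum replacement and serum. Embryonic stem cells (ESC) were of line v6.5 and were grown on MEF feeders, and the label of iPSC names feeders with question marks. Strain, medium and feeders therefore cannot be told apart from the populations.

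With no replicates there is no replicate error and no p-value, and where intervals are given they cover counting error only. Values were compared as log2 of the ratio of (RPKM + 1). Genes entered a comparison when any library in it had 2 RPKM or more. They were counted as higher or lower past 2-fold, in 1 direction for every pair of libraries compared. A gene below 2 RPKM throughout 1 side entered only through the other side and could not be called higher on its low side. Exons of a gene can overlap each other, so read numbers are given for its most-read exon. The depth, inferred from the steps of the values, ran from 19 to 58 megareads. Markers of the named cell types were found in their own libraries. All 7 neural stem cell markers reached 2 RPKM in each of the 3 NSC libraries, and all 6 pluripotency markers did so in iPSC and ESC. These 6 also reached 2 RPKM on day 6, but their sum there was 1140 RPKM, against 7300 in iPSC and 8962 in ESC. Of the day 6 sum, 886 RPKM was Pou5f1, the Oct4 gene, which is also among the OSKM factors. The sum of 11 mesenchymal markers was 37778 RPKM in MEF, 4033 in ESC and 1999 in Tomato-positive OSKM NSC. It was 164 RPKM in Tomato-negative OSKM NSC, 130 on day 6, 115 in iPSC and 12.3 in brain NSC. MEF also carried leukocyte markers, all 5 of them, with a sum of 2973 RPKM against 8.85 to 166 RPKM elsewhere. In such bulk libraries, fewer cells of a type and less RNA per cell cannot be told apart.

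**Figure D1:**
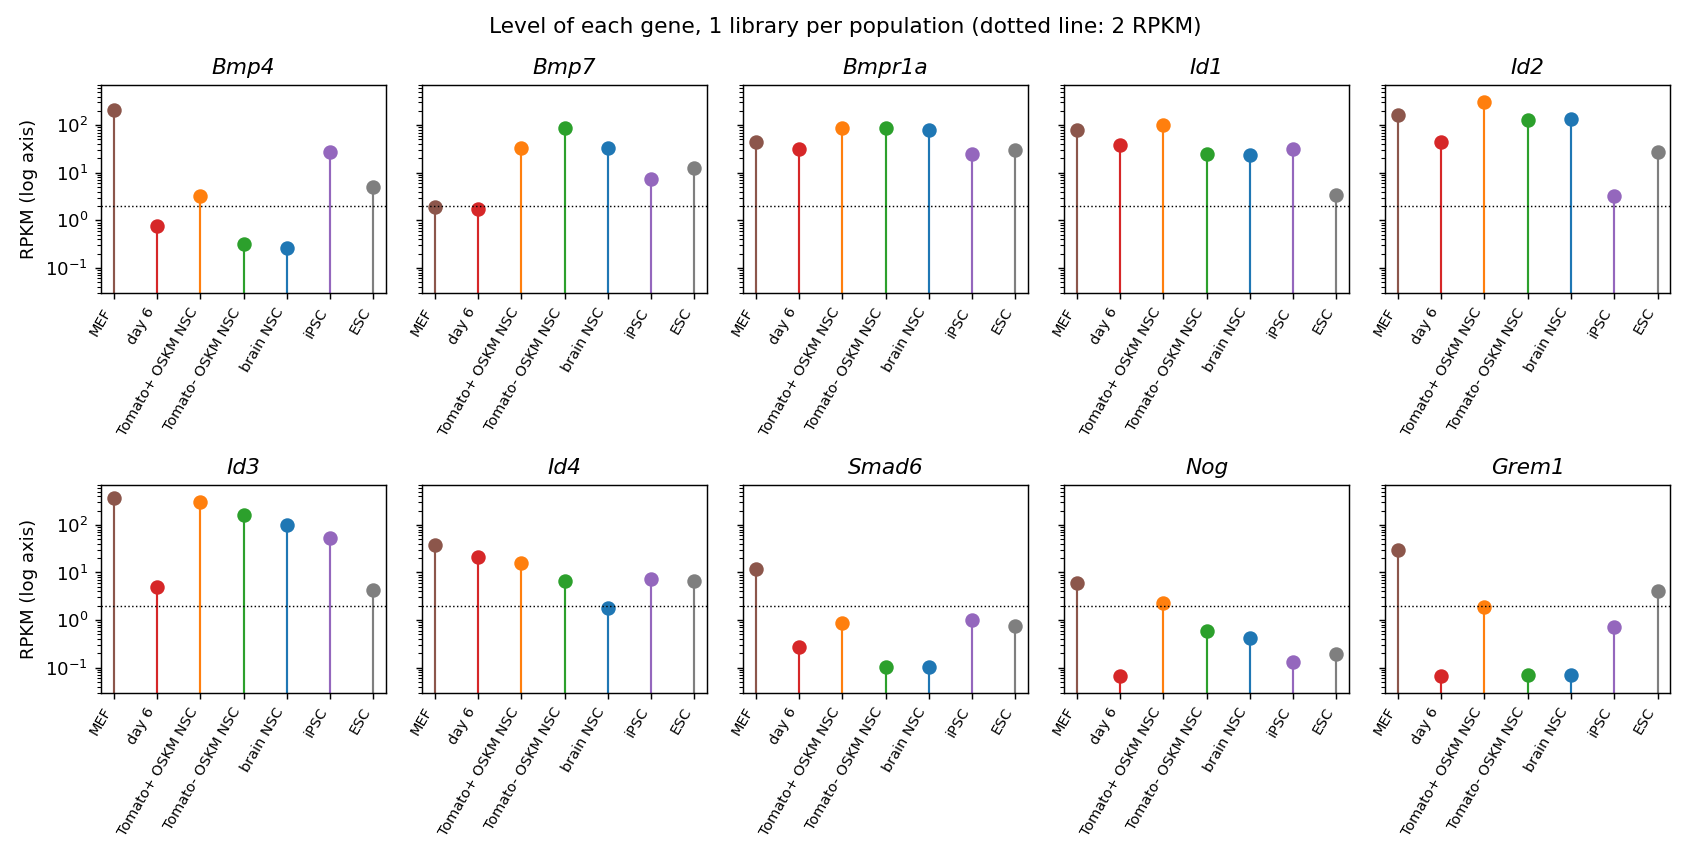
RPKM (log axis) of each of the 10 genes in the 7 libraries, 1 point per library, with a dotted line at 2 RPKM. Bmp4, Smad6, Nog and Grem1 were highest in MEF, Bmp7 was highest in Tomato-negative OSKM NSC (88.7 RPKM), and Id3 was lowest on day 6 (4.87 RPKM) and in ESC (4.20 RPKM).

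Of the ligand genes, Bmp4 was highest in MEF and Bmp7 in the NSC libraries, and both were low on day 6. Bmp4 (ENSMUSG00000021835, chromosome 14, 46383520 to 46390669, mm10) encodes a ligand that patterns mesoderm, skin and dorsal neural tube. Bmp4 measured 211 RPKM for MEF, 0.754 for day 6 cells, 3.27 and 0.316 for Tomato-positive and Tomato-negative OSKM NSC, 0.257 for brain NSC, 26.9 for iPSC and 5.03 for ESC. MEF was thus far above all other libraries and the pluripotent lines came next. The most-read Bmp4 exon held 11664 reads in MEF and 43 on day 6, a level 277-fold higher in MEF (95% exact interval 206 to 383). It held 13 reads in Tomato-negative OSKM NSC and none in brain NSC, where other Bmp4 exons, of 380 and 125 bases, stood at 1.36 and 2.67 RPKM. That exon shares bases with the neighbouring gene model Gm15217. All 6 exons of Bmp4 were lower on day 6 than in MEF, past 2-fold.

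Bmp7 (ENSMUSG00000008999, chromosome 2, 172868012 to 172940321), a ligand with roles in kidney, eye and brain, was low in MEF, where Bmp4 was highest. Bmp7 measured 1.92 RPKM for MEF, 1.76 for day 6 cells, 33.4 and 88.7 for Tomato-positive and Tomato-negative OSKM NSC, 33.4 for brain NSC, 7.42 for iPSC and 12.8 for ESC. The 3 NSC libraries were above both pluripotent lines, and these above MEF and day 6. All 7 exons passed 2-fold for both OSKM NSC libraries over day 6 and for brain NSC over MEF. The most-read exon held 124 reads in MEF and 1448 in brain NSC, a ratio of 19.5 at equal depth (95% exact interval 16.2 to 23.6).

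The receptor gene Bmpr1a (ENSMUSG00000021796, chromosome 14, 34410734 to 34503341) encodes a type I receptor kinase, also called Alk3. It varied least of the 10 genes, by 3.51-fold between its highest and lowest library. Bmpr1a measured 44.3 RPKM for MEF, 32.0 for day 6 cells, 85.5 and 87.5 for Tomato-positive and Tomato-negative OSKM NSC, 80.2 for brain NSC, 24.9 for iPSC and 29.5 for ESC. The 3 NSC libraries lay above the other 4 without overlap. In its most-read exon the Tomato-positive and Tomato-negative libraries held 4766 and 10938 reads, a ratio of 0.963 at equal depth (95% exact interval 0.931 to 0.997).

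The Id genes did not move as a block. Id3 (ENSMUSG00000007872, chromosome 4, 136143497 to 136145755) was the most variable of them on the log2 scale. Id3 measured 368 RPKM for MEF, 4.87 for day 6 cells, 308 and 158 for Tomato-positive and Tomato-negative OSKM NSC, 99.8 for brain NSC, 54.2 for iPSC and 4.20 for ESC. Day 6 and ESC were both low, and all other libraries stood at 54.2 RPKM or more. The most-read Id3 exon held 12273 reads in MEF and 130 on day 6, a level 96.5-fold higher in MEF (95% exact interval 81.2 to 116), and all 3 exons were lower on day 6.

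Id1 (ENSMUSG00000042745, chromosome 2, 152736251 to 152737410), is widely used as a readout of Bmp signals. Id1 measured 78.2 RPKM for MEF, 38.8 for day 6 cells, 101 and 24.6 for Tomato-positive and Tomato-negative OSKM NSC, 23.7 for brain NSC, 31.8 for iPSC and 3.42 for ESC. ESC alone was low. Between MEF and day 6 the log2 ratio was −0.99, just short of 2-fold, and it passed 2-fold with median-of-ratios scaling, with a pseudocount of 0.25 RPKM and with the highest exon as the value of the gene.

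Id2 (ENSMUSG00000020644, chromosome 12, 25093799 to 25097140) is known in neural and lymphoid progenitors. Id2 measured 161 RPKM for MEF, 45.2 for day 6 cells, 308 and 127 for Tomato-positive and Tomato-negative OSKM NSC, 134 for brain NSC, 3.26 for iPSC and 27.7 for ESC. It was the Id gene with the lowest value in iPSC, where the other 3 stood at 7.46 to 54.2 RPKM. Id4 (ENSMUSG00000021379, chromosome 13, 48261228 to 48266026), is known to regulate neural progenitor divisions. Id4 measured 37.1 RPKM for MEF, 21.0 for day 6 cells, 15.6 and 6.65 for Tomato-positive and Tomato-negative OSKM NSC, 1.81 for brain NSC, 7.46 for iPSC and 6.68 for ESC. Id4 was the only Id gene below 2 RPKM in any library, and that library was brain NSC. Of its 3 exons 2 share bases with antisense gene models, and strand use in the counting is not given in the sources used here. Leaving out such exons did not change which comparisons passed 2-fold for Id4.

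**Figure D2:**
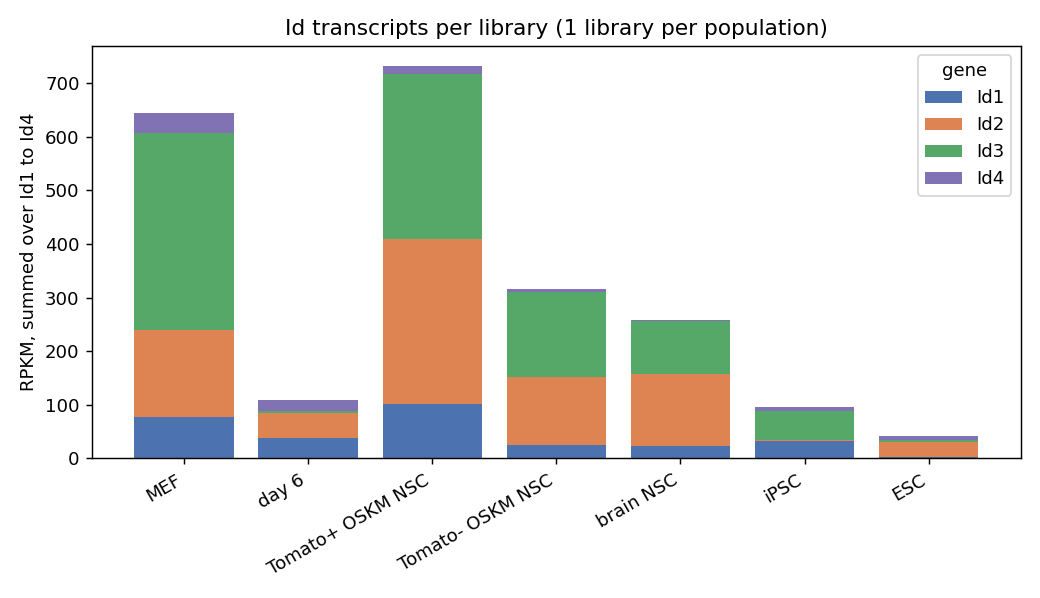
Stacked RPKM of Id1, Id2, Id3 and Id4 in each library (linear axis from 0, 1 library per population). The bars reach 644 RPKM for MEF, 110 for day 6, 733 for Tomato-positive OSKM NSC and 42.0 for ESC, and the green Id3 segment is almost missing on day 6 and in ESC.

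RPKM is a level per length, but a comparison between genes also depends on which exons are annotated and how evenly they are covered. On day 6 the first exons in the data of Id1 and Id2 stood at 50.9 and 34.8 RPKM, and the last at 37.8 and 47.1 RPKM. With this limit, the Id genes were set against each other within a library. Their sum came to 644 RPKM for MEF, 110 for day 6 cells, 733 and 316 for Tomato-positive and Tomato-negative OSKM NSC, 259 for brain NSC, 96.7 for iPSC and 42.0 for ESC. Id3 made up 57.2% of this sum for MEF, 4.43% for day 6 cells, 42.0% and 50.1% for Tomato-positive and Tomato-negative OSKM NSC, 38.5% for brain NSC, 56.0% for iPSC and 10.0% for ESC. On day 6 Id2 (41.2%) and Id1 (35.3%) led, in brain NSC Id2 (51.6%), and in ESC Id2 (65.9%). In Tomato-positive OSKM NSC Id2 (42.1%) was level with Id3. The iPSC and ESC libraries, both pluripotent, thus differed in their Id shares: Id2 made up 3.37% of the sum in iPSC. ESC were grown on MEF feeders, and the part of feeder cells in these shares was not tested. The 3 E protein genes Tcf3, Tcf4 and Tcf12, whose products Id proteins bind, summed to 387 to 446 RPKM in the NSC libraries and to 73.7 to 142 RPKM in the other 4. The Id sum over the E protein sum was 4.53 in MEF, 1.89 in Tomato-positive OSKM NSC and 0.570 to 0.876 in the other 5 libraries.

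Single exons of Id1, Id2 and Id3 gave different ratios between libraries. The first Id1 exon (chromosome 2, 152736251 to 152736745) stood at 56.0 RPKM in MEF and 50.9 on day 6, whereas the last (152736972 to 152737410) stood at 127 and 37.8 RPKM. Day 6 was the only library in which the first Id1 exon was above the last, by 1.35 times, against 0.239 to 0.896 times elsewhere. These exon ratios were looked at after the gene values were seen. The first Id2 exon in the data (chromosome 12, 25095663 to 25096092) is not the most upstream part of the annotated gene. For Id2 the order was the other way around: that exon was 0.738 times the last on day 6 and 1.57 to 2.59 times in the other 6 libraries. The level of Id2 in MEF was accordingly 6.38-fold that of day 6 in the first exon and 2.14-fold in the last. Over all protein-coding genes at 10 RPKM or more, the median of first over last exon was 0.480 on day 6, 0.463 in iPSC, 0.217 in ESC and 0.269 to 0.387 in the other 4 libraries. In ESC the first Id3 exon stood at 0.429 RPKM and the last at 9.56 RPKM, so that the excess of iPSC over ESC was 68.9-fold in the first exon and 7.45-fold in the last. The part of read coverage along transcripts in these exon differences was not tested.

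The windows before the starts of Id and Smad6 genes are shown because these genes are the direct transcriptional targets of the pathway. RefSeq start sites (GRCm38.p6) gave a window of 250 bases for 7 of the 10 genes. The motifs searched, on both strands, are known from Smad-bound DNA: the palindrome GGCGCC, the sequence GTCTG, and a spaced element of GNCGNC, 5 further bases and GTCT. These were chosen after the windows had been seen, and the spaced element can share its GTCT with GTCTG. In the sequences, 5′ to 3′ on the strand of the gene, matches are in capitals. The Id2 stretch (chr12:25096254-25096342, minus strand) stops where an annotated Id2 exon begins. It lies before the RefSeq start but inside the annotated Id2 gene, which runs to 25097140. The 2 Id3 stretches (chr4:136143643-136143672 and chr4:136143742-136143771, plus strand) are limited to the match, since the annotation has an Id3 exon over that window. Id4 is chr13:48260866-48261115, plus strand, and Smad6 is chr9:64022060-64022309, minus strand.
Id2: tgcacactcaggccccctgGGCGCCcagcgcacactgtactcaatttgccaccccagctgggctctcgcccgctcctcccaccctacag
Id3: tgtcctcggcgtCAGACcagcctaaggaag
Id3: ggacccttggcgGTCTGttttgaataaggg
Id4: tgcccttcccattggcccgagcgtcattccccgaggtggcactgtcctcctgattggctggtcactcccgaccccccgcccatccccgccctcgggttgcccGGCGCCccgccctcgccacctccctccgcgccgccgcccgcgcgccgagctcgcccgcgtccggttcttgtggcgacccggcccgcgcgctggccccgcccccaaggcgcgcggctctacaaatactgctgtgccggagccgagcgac
Smad6: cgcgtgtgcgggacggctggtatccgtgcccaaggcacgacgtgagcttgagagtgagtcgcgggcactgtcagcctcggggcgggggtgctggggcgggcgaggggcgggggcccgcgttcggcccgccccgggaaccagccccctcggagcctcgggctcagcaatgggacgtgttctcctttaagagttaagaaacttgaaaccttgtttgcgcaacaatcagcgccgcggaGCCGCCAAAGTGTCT

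GGCGCC was present in the windows of 4 genes, Id2, Id4, Bmpr1a and Grem1, and in 9.59% of 32851 mouse windows of the same length. GTCTG was present in the windows of Id3 and Grem1 and in 42.2% of all windows. The spaced element was present in Smad6 alone among the 7, in the last 15 bases before the start, and in 0.511% of all windows. Other motifs searched were CANNTG, in 2 of the 7 windows (66.2% of all), CCAAT, in 4 (33.8%), TATAAA, in 0 (12.4%), and GTCT followed directly by AGAC, in 0 (0.167%). The windows of the 7 genes had a GC content of 62.8% to 78.8%, against a median of 52.4% over all windows. These matches describe the sequence and no binding was measured. Windows of Id1, Bmp7 and Nog were not used here.

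Smad6 (ENSMUSG00000036867, chromosome 9, 63953076 to 64022059), an inhibitory Smad that feeds back on the pathway, had a gene mean above 2 RPKM in MEF and in no other library. Smad6 measured 12.1 RPKM for MEF, 0.268 for day 6 cells, 0.876 and 0.103 for Tomato-positive and Tomato-negative OSKM NSC, 0.103 for brain NSC, 0.994 for iPSC and 0.759 for ESC. Its most-read exon held 676 reads in MEF and 3 to 61 in the other libraries. The level in MEF was 62.8-fold that of day 6 in this exon (95% exact interval 34.9 to 126). Short Smad6 exons, of 78 and 57 bases, passed 2 RPKM in more libraries. They stood at 76.4 and 69.0 RPKM in MEF, 7.19 and 8.13 in ESC, 4.42 and 5.14 in iPSC, and 4.05 and 3.69 in Tomato-positive OSKM NSC. Both were at 0 on day 6, in Tomato-negative OSKM NSC and in brain NSC.

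The antagonist genes were likewise highest in MEF. Nog (ENSMUSG00000048616, chromosome 11, 89300638 to 89302332) encodes noggin, a secreted protein that traps Bmp4 and Bmp7, and lies in a single exon. Nog measured 6.06 RPKM for MEF, 0.0679 for day 6 cells, 2.25 and 0.582 for Tomato-positive and Tomato-negative OSKM NSC, 0.424 for brain NSC, 0.135 for iPSC and 0.190 for ESC. The values gave no whole read numbers at this exon length, so reads and their intervals are left out, and the order among the low libraries has no measured error.

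Grem1 (ENSMUSG00000074934, chromosome 2, 113746164 to 113758646) encodes gremlin, an antagonist made by mesenchymal cells. Grem1 measured 29.3 RPKM for MEF, 0.0681 for day 6 cells, 1.85 and 0.0689 for Tomato-positive and Tomato-negative OSKM NSC, 0.0714 for brain NSC, 0.727 for iPSC and 4.00 for ESC. Its most-read exon held 5396 reads in MEF and 13 on day 6, a level 424-fold higher in MEF (95% exact interval 248 to 797). ESC and Tomato-positive OSKM NSC, the libraries with the most mesenchymal transcripts after MEF, were also the next highest for Grem1. Whether cells of that kind account for these Grem1 reads was not tested.

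**Figure D3:**
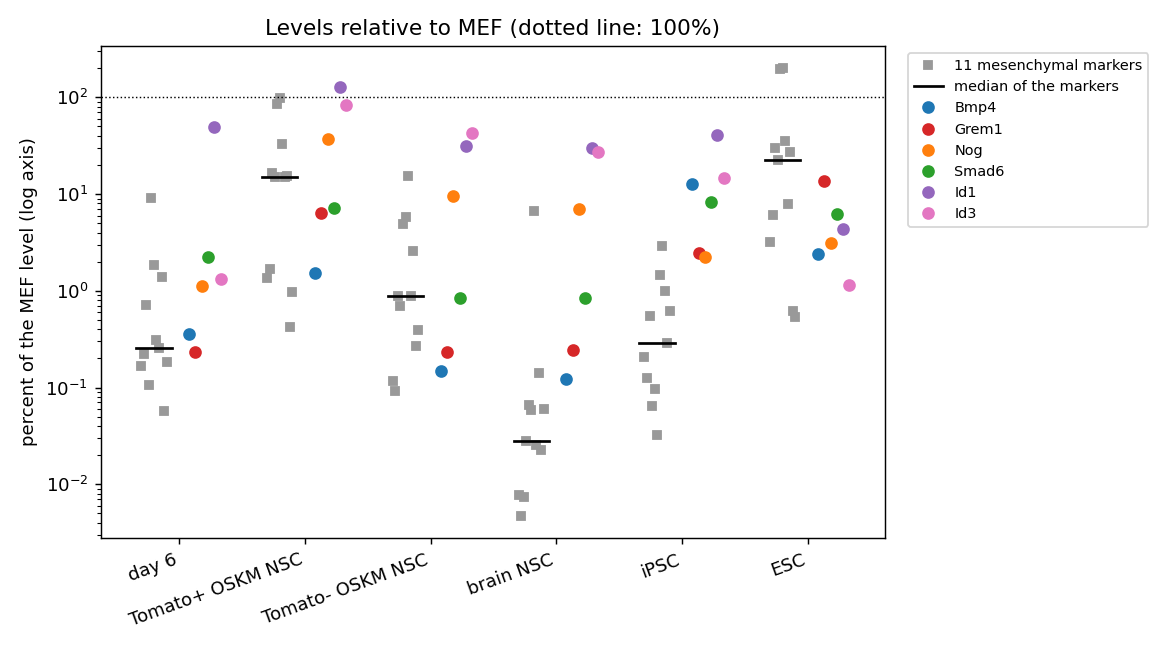
Level in each library as a percentage of the MEF level (log axis) for 11 mesenchymal markers (grey squares, median as a black bar) and 6 of the Bmp pathway genes (coloured points). In Tomato-positive OSKM NSC the markers had a median of 15.0% and Id1 stood at 130%, whereas in ESC the markers had a median of 22.8% and Id3 stood at 1.14%.

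Day 6 against MEF asks what differs between the sorted intermediate and fibroblasts. Of the 9 genes tested, 6 were lower on day 6 and none was higher. Over all 16154 genes tested, 31.2% were lower, 22.4% were higher and 53.6% differed in either direction, so differences of this size were common between these libraries. The lower genes were Bmp4 (log2 ratio −6.92), Id3 (−5.98), Grem1 (−4.82), Smad6 (−3.37), Nog (−2.72) and Id2 (−1.81). Of these, Bmp4, Grem1, Smad6 and Nog were below 2 RPKM on day 6. They entered only through MEF and could not have been called higher. Bmpr1a (−0.46), Id4 (−0.79) and Id1 (−0.99) differed by less than 2-fold, and Bmp7 was below 2 RPKM in both. The median log2 ratio was −2.72 over the 9 genes and −0.13 over all genes tested. Mesenchymal markers on day 6 had a median of 0.257% of their MEF level (range 0.0574% to 9.004%). Next to this, Bmp4 stood at 0.356%, Grem1 at 0.233%, Nog at 1.12%, Id3 at 1.32% and Smad6 at 2.22%. Id2 stood at 28.2%, Id1 at 49.6%, Id4 at 56.6% and Bmpr1a at 72.1%. Epithelial markers went the other way, with a sum of 1262 RPKM on day 6, where Epcam stood at 559, against 41.5 in MEF. The part of fewer fibroblasts or of epithelial cells in these ratios was not tested.

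**Figure D4:**
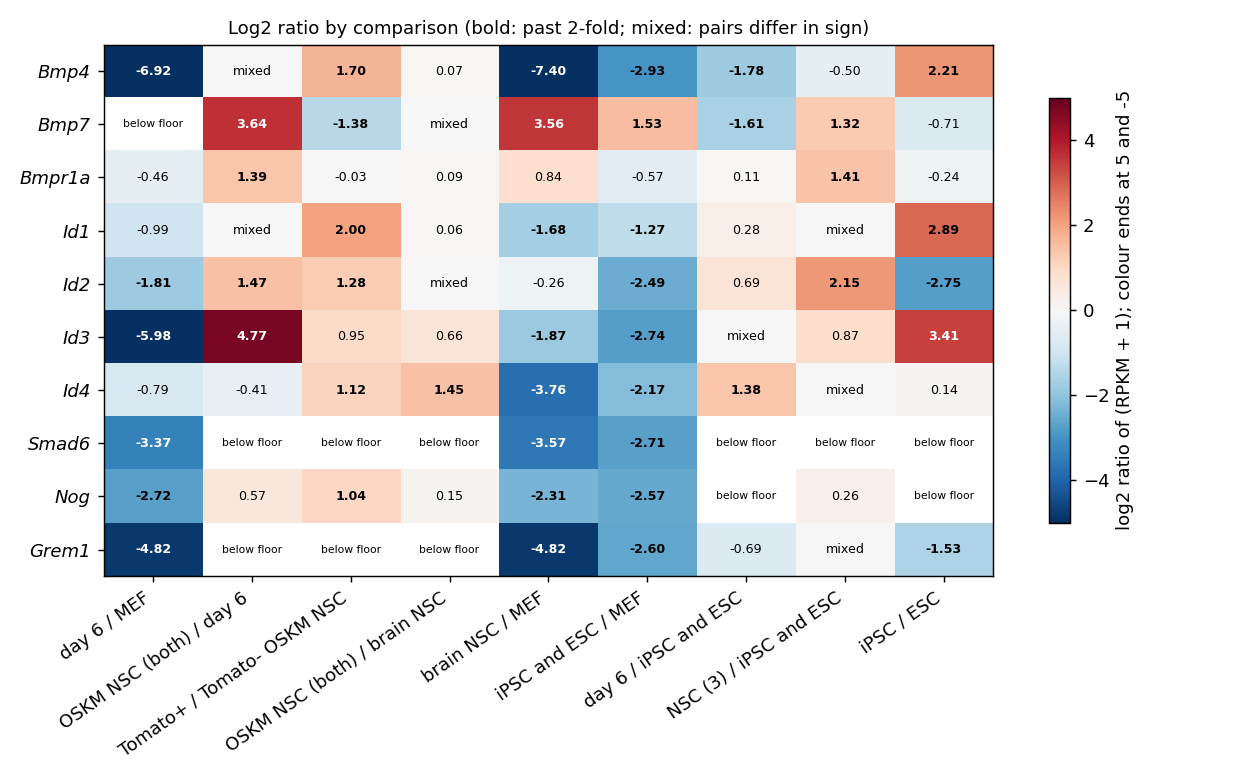
Log2 ratio of (RPKM + 1) for the 10 genes (rows) in the 9 comparisons (columns), red for higher and blue for lower in the population named first. Where several libraries stand on a side the smallest pairwise ratio is shown, "mixed" marks pairs that differ in sign, bold marks values past 2-fold, and the day 6 to MEF column holds 6 bold values, all of them below 0.

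For OSKM NSC against day 6 cells, 4 of 8 genes tested were higher in both and none was lower in both, against 24.4% and 11.2% of 16319 genes (35.6% in either direction). Id3 was higher by at least 4.77 on the log2 scale, Bmp7 by 3.64, Id2 by 1.47 and Bmpr1a by 1.39. Bmp7 was below 2 RPKM on day 6 and entered only through the OSKM NSC libraries. Id1 and Bmp4 had mixed signs, being above day 6 in the Tomato-positive library and below it in the Tomato-negative library. Between the OSKM NSC libraries together and brain NSC, 1 of 8 genes tested differed in both pairs, Id4, which was higher by at least 1.45 (log2). Over all 15739 genes tested 8.16% were higher, 5.08% lower and 13.2% differed in either direction. Bmp7, at 33.4 RPKM in both Tomato-positive OSKM NSC and brain NSC, was past 2-fold only in Tomato-negative OSKM NSC.

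The Tomato-positive and Tomato-negative OSKM NSC libraries differed in 6 of 8 genes tested, 5 higher and 1 lower in Tomato-positive cells. Over all 15323 genes tested, 9.77% were higher, 5.5% were lower and 15.3% differed in either direction. Id1 was 4.07-fold higher in its most-read exon (95% exact interval 3.77 to 4.38). The other higher genes were Bmp4 (log2 ratio 1.70), Id2 (1.28), Id4 (1.12) and Nog (1.04), and Bmp7 was lower (−1.38). Bmp4 (3.27 against 0.316 RPKM) and Nog (2.25 against 0.582 RPKM) were near the floor and entered only through the Tomato-positive library. Id3 was at 0.95 and Bmpr1a at −0.03. With libraries scaled to equal sums the split was 2 higher and 1 lower, with Id2, Id4 and Nog short of 2-fold, and with median-of-ratios scaling it was 3 higher and 1 lower. The median log2 ratio of all genes was 0.19 as deposited, −0.23 with equal sums and −0.05 with median-of-ratios scaling. All 11 mesenchymal markers reached 2 RPKM in the Tomato-positive library and 10 did in the Tomato-negative library, with sums of 1999 and 164 RPKM. Epithelial markers summed to 98.8 and 8.67 RPKM (the keratin gene Krt8 stood at 57.8 and 3.05). Endothelial markers summed to 17.4 and 0.919 RPKM, with Emcn at 12.995 and Cdh5 at 4.22 RPKM in Tomato-positive cells. The other endothelial markers were low in both libraries, Pecam1 at 0.157 and 0.148 RPKM and Tie1 at 0.0623 and 0.0317 RPKM. The part of these markers' cells in the differences between the libraries was not tested. Id1 and Id2 in Tomato-positive OSKM NSC stood at 130% and 192% of their MEF level, and the mesenchymal markers at 0.426% to 97.8% with a median of 15.0% and a sum of 5.29%.

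Against MEF, brain NSC had 7 of 10 genes lower and 1 higher, where 22.2% of 16253 genes were lower and 21.7% higher (43.9% in all). Bmp7 was the higher gene (log2 ratio 3.56). Id4 was lower by 3.76 on the log2 scale, Id3 by 1.87 and Id1 by 1.68, whereas Id2 (−0.26) did not pass 2-fold. Bmp4, Id4, Smad6, Nog and Grem1 were below 2 RPKM in brain NSC and entered only through MEF. Bmp7 was below 2 RPKM in MEF and entered only through brain NSC. Both pluripotent lines had 8 of 10 genes lower than MEF and 1, Bmp7, higher, where 18.9% of 17239 genes were lower and 20.5% higher (39.4% in all). All 4 Id genes were among the lower, by at least 1.27 for Id1, 2.17 for Id4, 2.49 for Id2 and 2.74 for Id3 on the log2 scale. Smad6 and Nog were below 2 RPKM in both lines and entered only through MEF. These comparisons and that of day 6 share the same MEF library, and that library also held the leukocyte and mesenchymal markers given above. Their part in the MEF values was not tested.

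Day 6 differed from both pluripotent lines in 3 of 8 genes tested. Id4 was higher (log2 ratio at least 1.38), and Bmp4 (−1.78) and Bmp7 (−1.61) were lower, where 9.2% of 16503 genes were higher and 19.1% lower (28.3% in all). Bmp4 and Bmp7 were below 2 RPKM on day 6 and entered only through the pluripotent lines. Id3 had mixed signs, far below iPSC and near ESC. The 3 NSC libraries were above both pluripotent lines in 3 of 9 genes tested, Id2 (at least 2.15), Bmpr1a (1.41) and Bmp7 (1.32), and below in none, where 10.4% of 17744 genes were higher and 10.4% lower (20.9% in all).

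The pluripotent lines also differed from each other, in 5 of 8 genes tested, where 22.3% of 15749 genes did. Id3 (log2 ratio 3.41), Id1 (2.89) and Bmp4 (2.21) were higher in iPSC, where 7.74% of genes were higher. Id2 (−2.75) and Grem1 (−1.53) were higher in ESC, where 14.5% of genes were. Grem1 was below 2 RPKM in iPSC and entered only through ESC. The Id2 ratio lay in all 3 of its exons. In the first exon Id2 had 119 reads in iPSC and 587 in ESC, a level 6.98-fold higher in ESC (95% exact interval 5.72 to 8.57). Mesenchymal markers had a median of 22.8% of their MEF level in ESC (range 0.532% to 199.9%, sum 10.7%) and 0.289% in iPSC (range 0.0320% to 2.90%, sum 0.303%). Id2 stood at 17.2% and 2.03% of its MEF level. The part of feeder cells in the Id2 and Grem1 values of ESC was not tested. Id1 and Id3 ran the other way, at 4.38% and 1.14% of their MEF level in ESC and 40.7% and 14.7% in iPSC.

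Other genes of the pathway were taken from a list by role, also chosen with earlier results of these data known. Of 60 genes in the list, all were matched and 49 reached 2 RPKM in some library. Between MEF and day 6, 32 of 47 tested were lower on day 6 and 3 were higher, where 31.2% and 22.4% of all genes tested were. Of 12 secreted antagonists and modulators tested 11 were lower, among them Fstl1, which encodes a follistatin-like glycoprotein, at 259 against 1456 RPKM, Bmp1, the procollagen C-proteinase that also cleaves chordin, at 25.1 against 162 RPKM, and the follistatin gene Fst at 6.97 against 98.1 RPKM. Of 9 other target genes 8 were lower, with the homeobox gene Msx1 at 0.0225 against 19.3 RPKM and Atoh8 at 0.0185 against 20.2 RPKM. Msx1 and Atoh8, like every tested list gene below 2 RPKM on day 6, entered only through MEF. Of 6 ligand genes 5 were lower, of 8 receptors and co-receptors 4 were lower and 1 was higher, and of 9 Smads and their inhibitors 4 were lower and 1 was higher. Also past 4-fold lower were Bmp3, Gdf6, Smad9, Bambi, Chrd, Fstl3, Nbl1, Sostdc1, Twsg1, Bmper, Kcp, Tsku, Msx2, Dlx5, Gata3 and Runx2. The ligand gene Bmp8b was higher, at 17.5 RPKM on day 6 against 0.370 in MEF and at most 0.416 in the other 5 libraries. None of the 3 E protein genes passed 2-fold.

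**Figure D5:**
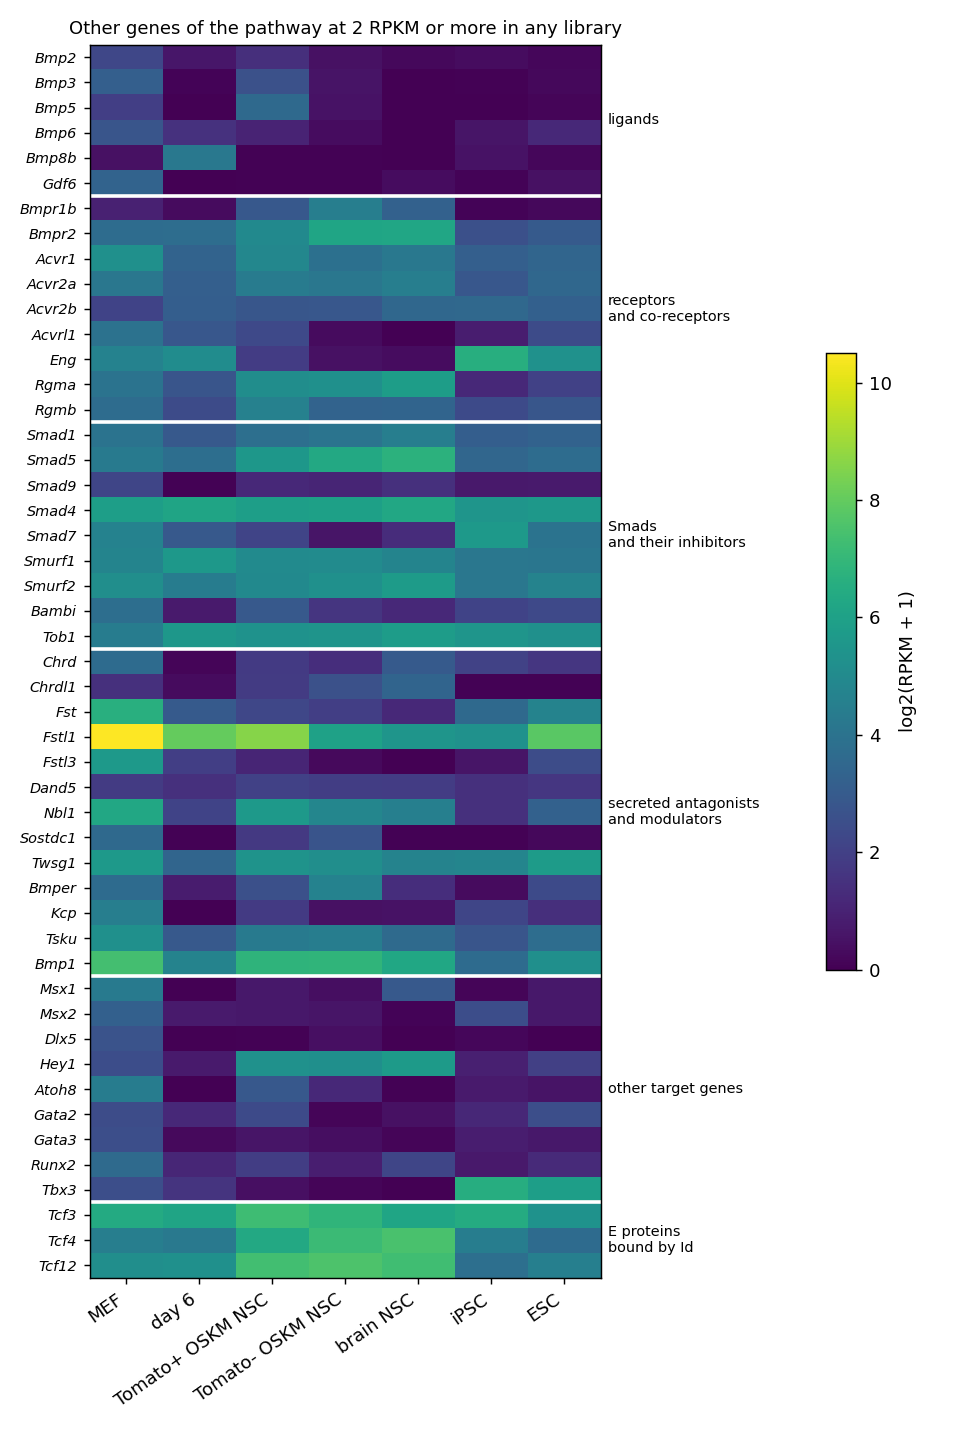
Log2(RPKM + 1) of the 49 pathway genes at 2 RPKM or more in any library (rows, by role) in the 7 libraries (columns). The MEF column is brighter than day 6 for all 12 antagonists and modulators tested, 11 of them past 2-fold, Bmp8b stands out on day 6, and Bmpr1b, Hey1, Tcf4 and Tcf12 are brightest in the 3 NSC libraries.

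In the OSKM NSC libraries, 16 of 40 list genes tested were higher than on day 6 in both and 2, Bmp8b and Eng, were lower, where 24.4% and 11.2% of all genes tested were. Past 4-fold higher in both were Bmpr1b, Rgma, Nbl1, Bmp1, Hey1, Tcf4 and Tcf12. The type I receptor gene Bmpr1b measured 6.52 and 21.7 RPKM for Tomato-positive and Tomato-negative OSKM NSC and 8.71 for brain NSC, against 0.0736 to 0.956 in the other libraries. The type II receptor gene Bmpr2 stood at 30.5, 71.4 and 74.2 RPKM in the same 3 libraries and at 4.86 to 12.3 elsewhere. Smad5, a transducer of Bmp signals, stood at 45.8, 79.6 and 108 RPKM against 10.0 to 18.4 elsewhere. Hey1, a target shared with Notch signals, stood at 39.0, 36.4 and 52.6 RPKM against 0.702 to 4.57. Tcf12 stood at 158, 189 and 155 RPKM against 13.5 to 38.0. Like Bmpr1a, these genes were higher in each NSC library than in any other. The inhibitor gene Smad7, looked up after its values were seen, ran unlike Smad6, at 48.5 RPKM in iPSC, 24.0 in MEF and 14.9 in ESC. Against brain NSC, 3 of 39 list genes tested were higher in both OSKM NSC libraries and 2 lower, including Msx1 at 0.598 and 0.295 against 6.66 RPKM. These counts lie near the 8.16% and 5.08% of all genes tested. Tomato-positive cells also exceeded Tomato-negative cells in the ligand genes Bmp5 (11.1 against 0.436 RPKM) and Bmp3 (5.16 against 0.488 RPKM), in Fstl1 (388 against 63.2 RPKM) and in Gata2 (4.10 against 0.0998 RPKM), and were below them in Bmper (4.86 against 24.6 RPKM).

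The T-box gene Tbx3 was highest in the pluripotent lines, and the endoglin gene Eng was lowest in the NSC libraries. Eng, a co-receptor, stood at 95.2 RPKM in iPSC, 38.9 in ESC, 33.3 on day 6 and 24.6 in MEF and at 0.262 to 2.68 in the NSC libraries. Tbx3 measured 93.1 RPKM for iPSC and 58.7 for ESC and no more than 4.74 in any other library. The common Smad gene Smad4 was level across libraries, at 43.7 to 77.6 RPKM.

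To place each pattern, the other 15321 protein-coding genes at 2 RPKM or more were ranked by the root-mean-square difference of log2(RPKM + 1) over the 7 libraries, each gene centred on its mean. The nearest to Id1 were Ccdc85b (0.507), Chpf (0.614) and Tnfrsf12a (0.684). The nearest to Id2 were Stk39 (0.442), Parp8 (0.605) and Pxdn (0.609). For Id3, leaving out an unnamed gene model that was nearer, they were Plekho1 (0.978), Vim (0.981) and F2r (1.01), and for Id4 Sh3bp2 (0.191), Trip6 (0.229) and Rnd3 (0.330). For Bmp4 they were Alox5ap (0.643), Plagl1 (0.686) and Mrc1 (0.896). The vimentin gene Vim, a mesenchymal and neural progenitor filament, shared its low values on day 6 (86.3 RPKM against 3595 in MEF). Among all genes ranked from Id1, Id4 was at rank 1234, Id2 at rank 11440 and Id3 at rank 10190. Ranks depend on the starting gene: from Id3, Id1 was at rank 693, Id2 at rank 3368 and Id4 at rank 8934. These distances rest on 7 single libraries and describe likeness only.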

How the data were processed

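RNA-seq of 7 mouse libraries was used, 1 per population. The authors deposited 1 value per Ensembl exon and library. The deposited table does not name its unit, and RPKM was inferred from the values, since value times exon length falls on whole multiples of 1 step per library. CASAVA 1.8.2, Bowtie, TopHat2 2.0.10, bedtools and mm10 are named in the submitters' processing notes with no role, and the use of strand is not given in the sources used here. Of 279252 exons, 270168 were matched by exon ID to GENCODE M21 (GRCm38), giving 29686 genes. A gene's value is the exon-length-weighted mean. Some exons (14816) share bases with an annotated exon of another gene and were kept.

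Depth is the lowest whole number of megareads at which, over exons longer than 200 bases and values under 5000 reads, value times exon length is a whole read number, within 0.01 read plus a rounding term, for 90.3% to 90.8% of values. Reads are those of the exon with most reads in each gene, and intervals are 95% Clopper-Pearson. Python 3.11.15, pandas 2.3.3, numpy 2.4.6 and scipy 1.17.1 were used. The rules were tested on simulated data. There were 9 comparisons at 2-fold, a floor of 2 RPKM and a pseudocount of 1 RPKM, on the scale log2(value + 1). Alternatives were 2 scalings, pseudocounts of 0.25 and 4, floors of 8 and none, the highest exon, leaving out shared exons, iPSC alone and Tomato-negative OSKM NSC alone.

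The 10 genes and the lists were chosen with earlier results of these data known. Genes named besides them are the 2 highest of each role in the list, list genes past 4-fold in the comparison described, and the 3 nearest in pattern to Id1, Id2, Id3, Id4 and Bmp4. A gene of the pathway list is not reported here and was left out of its counts.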

Additional observations from a re-analysis of the deposited data

How the results depend on the processing

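Of 770 single-gene ratios recomputed under the alternatives, 730 kept their side of 2-fold, 20 fell short of it and 20 passed it, and no called ratio changed sign. The number of genes past 2-fold stayed within 1.5 times for day 6, brain NSC and the pluripotent lines against MEF, for the OSKM NSC libraries against day 6, for the 3 NSC libraries against the pluripotent lines and for iPSC against ESC. Between Tomato-positive and Tomato-negative OSKM NSC, 6 genes became 3 with equal sums and 3 with a pseudocount of 4 RPKM. Between the OSKM NSC libraries and brain NSC, 1 gene became 0 with a pseudocount of 4 RPKM, 2 with the highest exon and 2 with Tomato-negative OSKM NSC alone. Between day 6 and the pluripotent lines, 3 genes became 1 with a pseudocount of 4 RPKM and 5 with iPSC alone, where Id2 and Id3 also passed. Scaling moved the split of all genes: 64.0% of those past 2-fold were higher in Tomato-positive than Tomato-negative OSKM NSC as deposited and 31.4% with equal sums, 49.4% and 62.2% for brain NSC against MEF, and 34.7% and 54.1% for iPSC against ESC. With median-of-ratios scaling 53.4% were higher in the OSKM NSC libraries than on day 6 (68.5% as deposited), 50.4% than in brain NSC (61.7%), 40.0% in the pluripotent lines than in MEF (52.0%) and 44.5% on day 6 than in the pluripotent lines (32.5%). No paired analysis was possible because each population has 1 library. Depth limits Smad6, with 3 to 61 reads in every library but MEF, and Grem1, with 8 to 13 reads on day 6, in Tomato-negative OSKM NSC and in brain NSC.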
